A study of Zea mays with 27 samples.

Results

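Histone messenger RNAs were followed through 27 probes of 4 maize genes, out of 1607 probes that the platform's gene table assigns to 1 gene each (532 genes) and 18303 probes with values. The members were all probes of LOC542385 (his1, 5 probes) and LOC541964 (his1a, also hon102, 2 probes), which encode linker histone H1, of LOC542301 (his2b5, 18 probes), which encodes the core histone H2B, and of LOC542113 (nfa101, 2 probes), a nucleosome assembly factor. Their probes were taken by gene identifier, with no threshold on their values. The study set the maize inbred lines B73 and Mo17 against the F1 hybrid of the cross Mo17 x B73 in above-ground tissue of seedlings aged 14 days, with 6 seedlings pooled per genotype and replication. Each of the 27 2-colour cDNA arrays, S1 to S27, gave 1 log ratio per probe between a Cy3-labelled and a Cy5-labelled sample, and the design text describes 9 kept replications with 3 arrays each in a loop. A genotype is labelled for a single channel (F1 in Cy3 on S1), so no array was placed in a group and B73, Mo17 and F1 were not compared.

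DNA in the nucleus is wound around octamers of the core histones H2A, H2B, H3 and H4 to form nucleosomes, and the linker histone H1 binds outside this core where the DNA enters and leaves it. Nucleosome assembly factors of the NAP family are chaperones that carry histones and help place them on DNA. Most core histone RNA is made while DNA is copied, so that in a seedling it is known from dividing tissue such as the shoot apex and leaf bases. H1 and H2B genes form families of similar copies, and a cDNA spot can bind RNA of relatives of its gene. How much of each signal came from such relatives was not tested. The files hold ratios between samples and no levels, so the tissue could not be checked against its marker genes, and less RNA per cell could not be told apart from fewer dividing cells.

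Values below are log2 ratios with the median of the array subtracted. The numerator of the ratio is unknown, so a sign says only that a probe lay above or below the middle of its array. The spread of a probe is its 90th percentile over the 27 arrays minus its 10th. The scale is uncertain. A spread of 1 is 2-fold if the deposited values are natural logs, and 1.41-fold if they are 2 times natural logs. Under the second reading every log2 value here has to be multiplied by 0.5. Distances between frequent values lean to this second reading, as described under the processing. Correlations, and shares of probes past a threshold as printed here, do not depend on the reading. The fold that a threshold stands for does: with 2 times natural logs, a 2-fold spread is a printed spread of 2. With no groups there are no replicates, and errors are jackknife standard errors that leave out 1 of the 27 arrays at a time. Spreads and profiles rest on percentiles or medians, for which such errors are not reliable. Leaving out 1 array often gave the same median spread again, so the errors of spreads are a rough guide only. Arrays of a replication share RNA pools and the labels do not say which arrays these are, so the errors take no account of the sharing and may be too small. The interquartile range of an array over all probes had a median of 0.75 and ran from 0.40 to 1.57, so the same log2 distance was a larger departure on some arrays than on others. Arrays S1 to S15 have at least 2% of their spots at a single repeated value and S16 to S27 have fewer, so values are also given for these 15 and 12 arrays apart.

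Over all 27 arrays together, the linker histone genes had the widest ratios, the H2B gene came next and nfa101 had the narrowest. The median spread was 1.47 ± 0.42 over the 2 his1a probes, 1.28 ± 0.19 over the 5 his1 probes, 1.07 ± 0.20 over the 18 his2b5 probes and 0.77 ± 0.14 over the 2 nfa101 probes (± jackknife standard error, 27 arrays). Neighbours in this order lay within the sum of these errors. Over S1 to S15 the medians kept the order, at 1.42 for his1a, 1.08 for his1, 0.76 for his2b5 and 0.73 for nfa101. Over S16 to S27 they lay close together, at 1.13, 1.18, 1.11 and 1.06, so the order rested largely on the first set of arrays. Over all 1607 one-gene probes the median was 1.17, with quartiles of 0.90 and 1.68. Taken by gene, the median of the gene spreads over all genes was 1.44. By that measure his1 lay below the typical gene and his1a close to it. This probe median and the shares of probes given below include the many probes of the gene MNB1b. In all, 17 of the 27 member probes had a spread of at least 1, where 65% of one-gene probes and 79.2% of all probes did, so the members' share was close to that of other named genes with this processing. By gene, these were all 7 linker probes, 10 of 18 his2b5 probes and neither nfa101 probe. One member, a his1 probe, reached a spread of 2, which 18.5% of one-gene probes did. When each run of 400 spots in table order, read as a printing block, was centred on its own median, the number with a spread of at least 1 was 9 of 27, where 53.5% of one-gene probes reached it. Over S1 to S15 it was 8 of 27, where 52% of one-gene probes reached it. The members' share was therefore below that of other named genes under both of these settings, and this difference was not tested. Over S16 to S27 the number was 19 of 27, and the share of one-gene probes over those arrays was not computed.

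**Figure D1:**
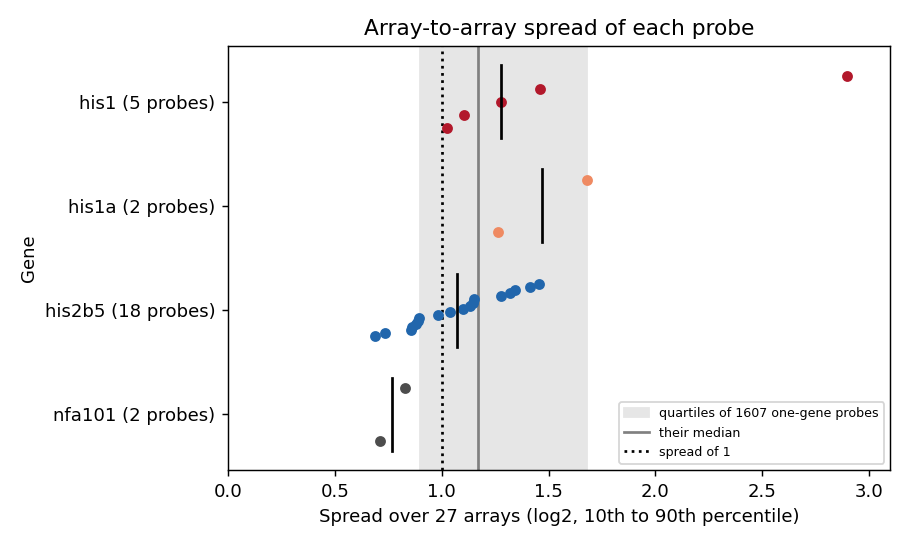
Spread of each member probe over the 27 arrays (log2, 90th minus 10th percentile), 1 point per probe, with a black bar at the gene's median. The grey band runs between the quartiles of all one-gene probes (0.90 and 1.68), the grey line their median (1.17) and the dotted line a spread of 1. The 2 nfa101 points and several his2b5 points lie left of the band, and 1 his1 probe lies far to the right at 2.90.

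Among the his1 probes, a single one had a far wider range than the rest. Probe 12226 ran from -2.15 (S16) to 4.77 (S20), with a median of 0.26, and its next highest value was 4.47 on S22. On S20 and S22 the 20 spots beside it had medians of 0.15 and -0.02. None of them was as high as the probe, but their highest values reached 3.83 and 3.34. On S11, where the probe was at 2.66, 1 of the 20 was higher, at 5.67. The other 4 his1 probes stayed within narrower limits. Probe 8996 ran from -0.75 (S27) through a median of 0.28 to 2.0 (S2), and it lay above the array median on 20 arrays. Probe 2866 ran from -1.67 (S21) to 0.64 (S6) with a median of -0.17. Probe 4465 ran from -1.03 (S24) to 0.73 (S3), and probe 1394 from -0.70 (S4) to 1.12 (S19). No 2 of the 5 probes shared the array of their highest value.

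The 2 probes of his1a also had unequal ranges. Probe 16190 ran from -2.25 (S4) through a median of -0.01 to 4.29 (S3), with a spread of 1.68. Its neighbours on S3 had a median of -0.05, and those on S4 had -0.65. The probe held the most frequent value of the array on 2 arrays, and no other member did so on any array. Probe 5646 ran from -1.35 (S27) to 0.64 (S13), also around a median of -0.01, with a spread of 1.26. On S27 the probes lay on opposite sides of the array median, at 1.55 for probe 16190 and -1.35 for probe 5646.

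The 18 his2b5 probes formed a narrower group, with spreads from 0.69 (probe 6574) to 1.46 (probe 11714). Their medians over arrays lay between -0.22 and 0.18, so none leaned far to 1 side. Probe 6574 ran from -0.99 (S21) through a median of 0.11 to 0.71 (S16). Probe 11714 ran from -0.69 (S24) through 0.02 to 1.11 (S16). For 17 of the 18 probes the spread was wider over S16 to S27 than over S1 to S15, with medians of 1.11 for the 12 arrays and 0.76 for the 15, and 55.3% of one-gene probes were wider over S16 to S27. The same count was 4 of 7 for the linker probes. The difference from other named genes was not tested.

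The lowest single H2B values came from 2 arrays, S27 and S19. On S27, probe 8937 was at -7.97, probe 11000 at -4.59 and probe 7730 at -4.08, while the median of all 18 probes there was -0.09. The 20 spots beside probe 8937 had a median of -2.22 and reached -12.08, so low values surrounded it. Those beside probe 7730 had a median of 3.89 and ran from -8.31 to 11.05. Those beside probe 11000 had a median of -0.19 and none was as low as the probe. On S19, probes 11347 and 8494 were at -2.29 and -2.25, beside neighbours with medians of -1.07 and -1.08. Within its run of 400 spots, the median on S19 was -1.33 for probe 11347 and -0.77 for probe 8494.

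**Figure D2:**
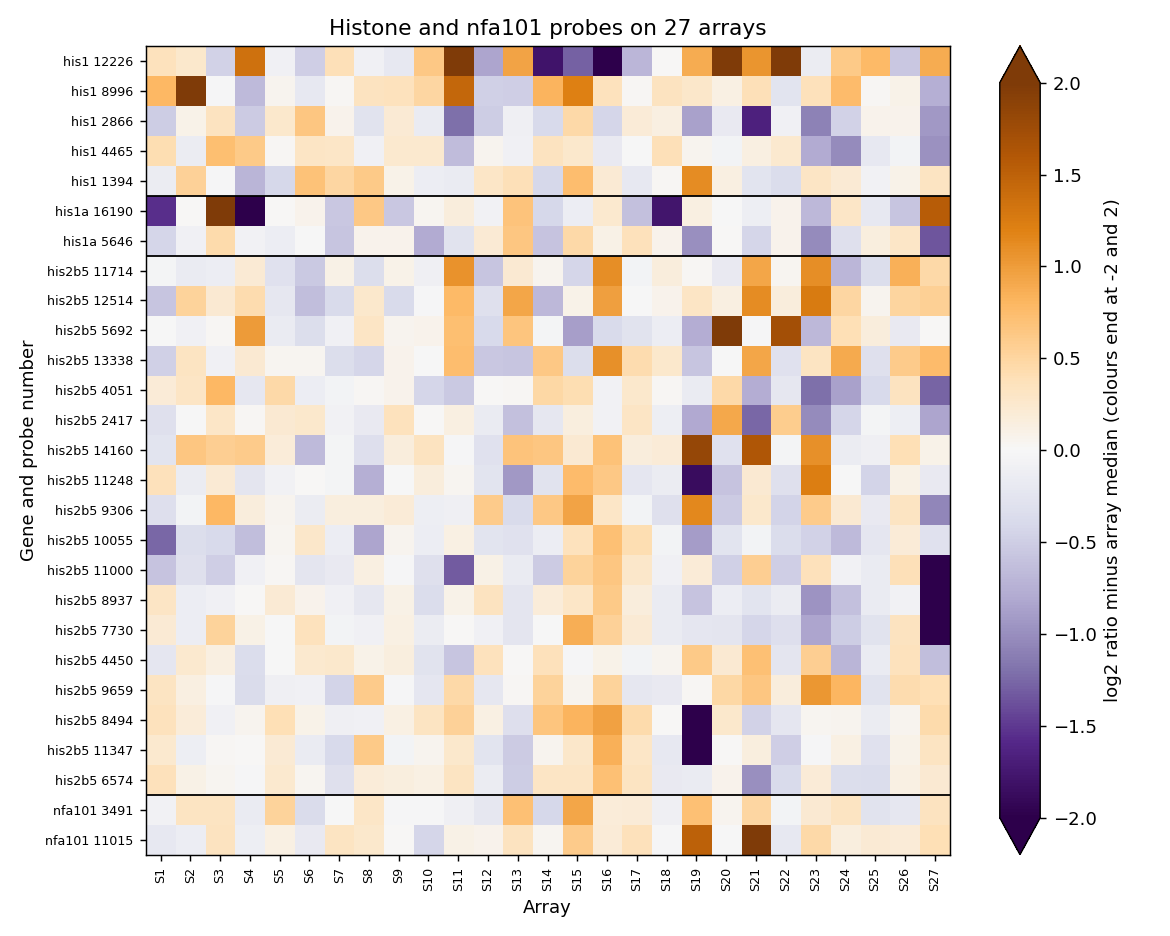
Log2 ratios minus the array median for the 27 member probes (rows, grouped by gene and sorted by spread) on the 27 arrays (columns). Colours end at -2 and 2. The column S16 is above the median for most his2b5 rows, and the dark cells on S27 and S19 are the low values of single his2b5 probes.

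Taking the 18 H2B probes together, most arrays had about as many probes above as below the array median. The number above had a median of 9 and lay between 6 and 12 on 19 arrays. S16 had 15 of 18 above, where 56.4% of one-gene probes were above, and the his2b5 median there was 0.64, the highest of the 27 arrays. S26 had 15 of 18 above with a median of 0.32, against 55.1% of one-gene probes. S15 had 14 of 18 above with a median of 0.28, but there 64.8% of one-gene probes were above as well. At the other end, S25 had 2 of 18 above with a median of -0.20, against 50.6% of one-gene probes. S7 had 3 of 18 above with a median of -0.09, against 41.9%. These 5 arrays were singled out after their values were seen. On 23 of 27 arrays the his2b5 median was within 0.25 of the array median.

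The linker profile (the median of its 7 probes on each array) and the nfa101 profile (of its 2 probes) had their highest values on arrays other than S16. The linker profile was highest on S15 (0.46) and lowest on S27 (-0.75), and on no array did all 7 linker probes lie above, or all 7 not above, the array median. On S16, where H2B was highest, the linker profile was 0.11 and the probes ran from -2.15 to 0.36. The nfa101 profile ran from -0.28 (S6) through a median of 0.10 to 1.47 (S21). Probe 11015 of nfa101 had 2.44 on S21 and 1.51 on S19, and probe 3491 had 0.50 and 0.71 there. On S21 the neighbours of probe 11015 had a median of 0.72.

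**Figure D3:**
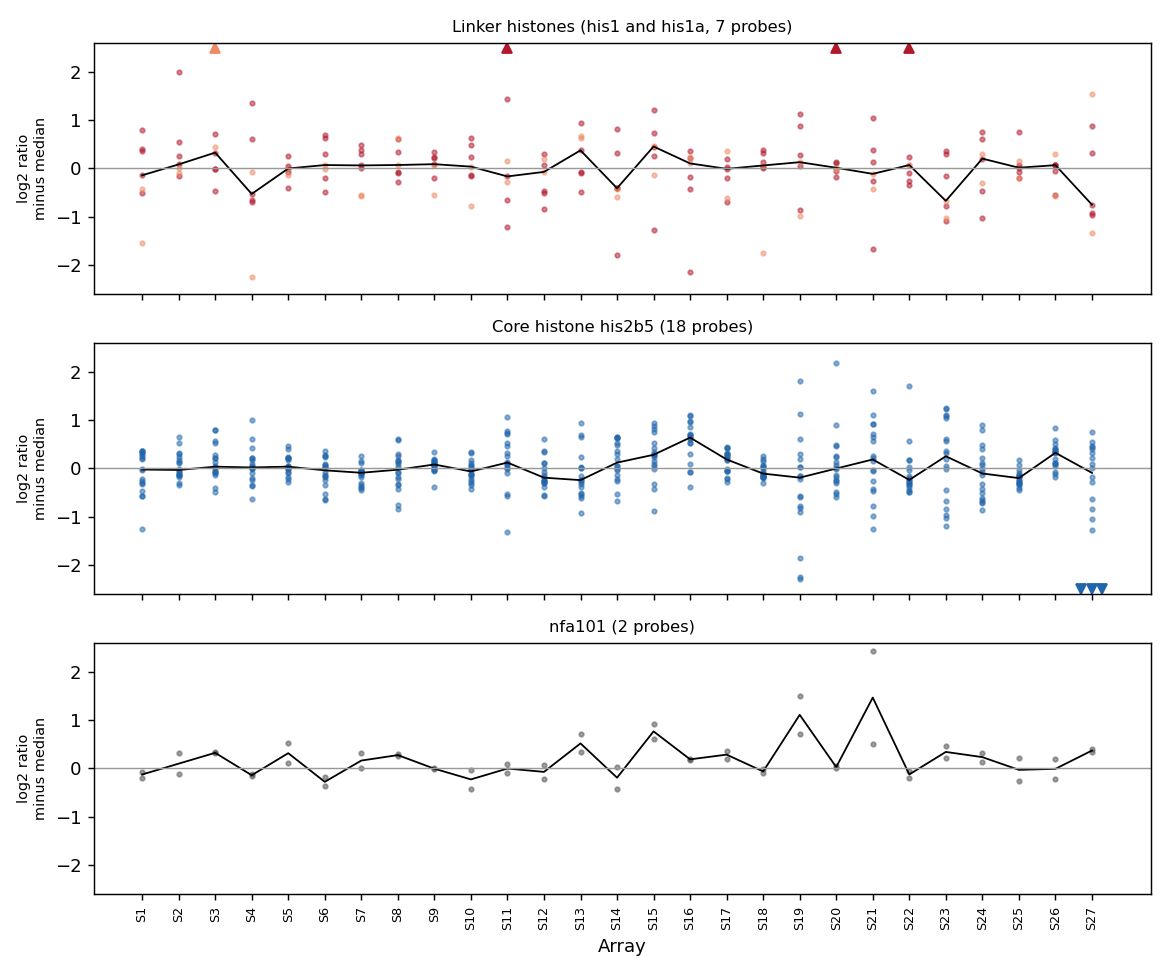
Log2 ratios minus the array median (vertical axes) on each array (horizontal axis) for linker histones (red his1, orange his1a), his2b5 (blue) and nfa101 (grey). Points are probes, black lines join the median of the probes on each array for reading only, and triangles at the edge mark values beyond the axis. The his2b5 line peaks on S16 (0.64) and the nfa101 line on S21 (1.47).

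Agreement among probes of the same gene was near 0 for his1, slightly above 0 for his2b5 and highest for nfa101, and for his1a it depended on single arrays. Correlations are Pearson's r over the 27 arrays, given as descriptions with no p-value, because arrays of a replication share RNA pools and probes share arrays. The 10 pairs of his1 probes had a mean r of -0.0362, from -0.238 to 0.450. Of the 16 genes with exactly 5 probes, 1 had a lower mean, and their median was 0.142. The pair of his1a probes had an r of 0.0894 ± 0.30, and 65 of the 112 genes with exactly 2 probes had a lower r, with a median of 0.0401. It was -0.146 without S3, where probe 16190 had its highest value, and 0.269 without S27. It was 0.446 for the 15 arrays S1 to S15 and -0.507 for the other 12. The pair of nfa101 probes had an r of 0.549 ± 0.11 (Spearman's rho 0.614), and 6 of the 112 genes with exactly 2 probes had a higher r. Without S19 and S21 the nfa101 value was 0.578. With runs of 400 spots centred it was 0.291, and with the neighbouring spots subtracted it was 0.182.

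The 153 pairs of his2b5 probes had a mean r of 0.103 ± 0.040, from -0.602 to 0.956. Their median r was 0.0671, next to 0.0093 for pairs of different genes, 0.193 for all same-gene pairs and 0.146 for these without MNB1b. Of the 153 his2b5 pairs 93 were above 0 and 20 (13.1%) had an r of at least 0.5. The share was 4.9% for pairs of probes of different genes and 19.6% for all pairs of probes of the same gene. Of those 27916 same-gene pairs 24310 belong to 1 gene, MNB1b, and without it the share was 17.3%. Of the 18 genes with at least 10 probes, 4 had a lower mean r than his2b5, and the median of the 18 was 0.190. The highest values lay in a few small groups of probes. Probes 7730, 8937 and 11000 had r between 0.835 and 0.956 with each other, and these were the 3 probes at the low values on S27. Without S27, r was 0.754 for 7730 with 8937, 0.0864 for 7730 with 11000 and -0.0420 for 8937 with 11000. Probes 8494 and 11347, the low ones on S19, had an r of 0.880, and of 0.636 without S19. Probes 6574 and 8494 had an r of 0.577, and of 0.851 without S19. With S19 and S27 both left out, 17 pairs had an r of at least 0.5, and 12 of them were among the 20.

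The place of the probes in the table moved with their agreement. His2b5 pairs less than 2000 spots apart had a mean r of 0.213 (45 pairs), those 2000 to 5000 apart had 0.140 (61 pairs), and those at least 5000 apart had -0.0515 (47 pairs). Pairs of different genes showed the same order with smaller values, at 0.0756, 0.0343 and -0.0138. After runs of 400 spots were centred, the his2b5 means were 0.169, 0.131 and 0.0347, and those of different genes were 0.0245, 0.0210 and 0.0196. At each distance and with both ways of centring, except for pairs at least 5000 spots apart when only arrays were centred, his2b5 pairs had a higher mean r than pairs of different genes. No test was made of these differences.

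**Figure D4:**
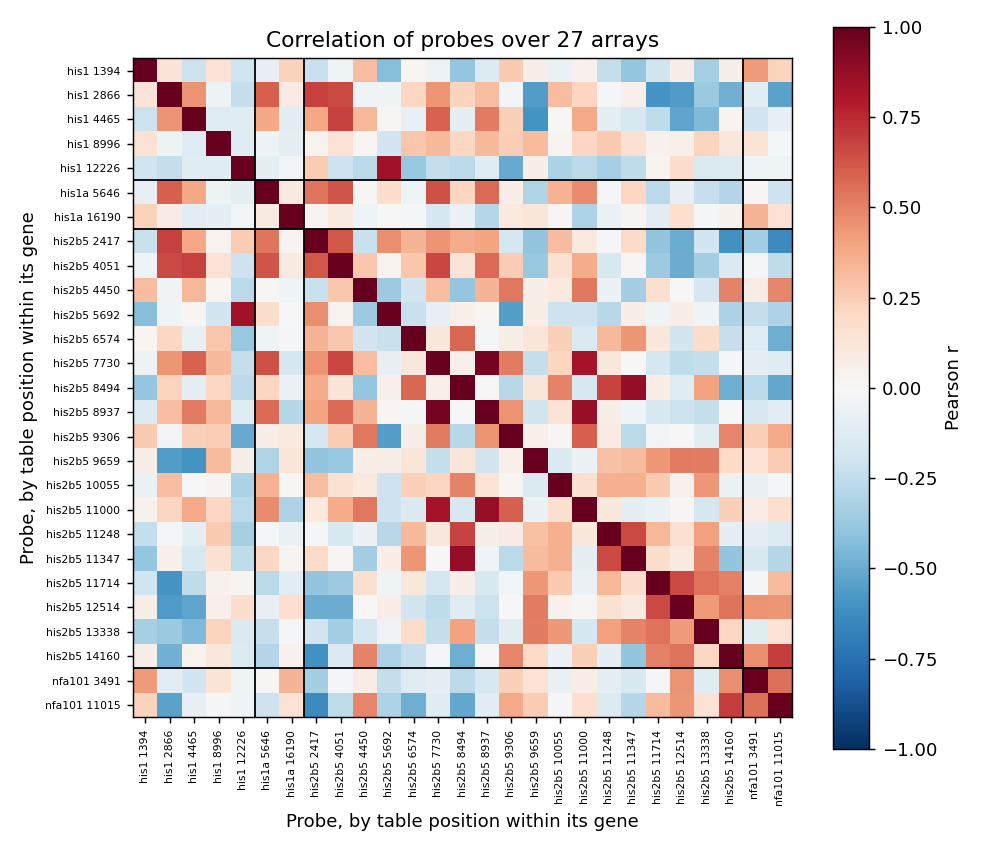
Pearson correlation over the 27 arrays between the 27 member probes, grouped by gene and ordered by table position within each gene. Black lines separate the genes. Dark red cells off the diagonal mark the his2b5 groups 7730, 8937 and 11000 (0.835 to 0.956) and 8494 with 11347 (0.880), and his1 probe 12226 with his2b5 probe 5692 (0.840).

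The linker and core histone profiles had a correlation near 0. The probes behind each profile agreed little, though. The 21 pairs of linker probes had a mean r of 0.0266, with 13 below 0, and the his2b5 pairs had 0.103. Medians of such probes hold little common signal, so an r near 0 cannot show that the genes vary independently. Over the 27 arrays r between the linker and core profiles was -0.0785 ± 0.21 (jackknife standard error), with a Spearman's rho of -0.158. Without S16 and S26, the 2 arrays farthest from the median of the H2B profile, r was -0.220. It was -0.0460 over the arrays S1 to S15 and -0.0665 over the later 12. The r with his2b5 was -0.0038 for his1 alone and -0.0219 for his1a alone. Of the 531 other genes, 336 had a higher r with the H2B profile than the linker profile had, and the quartiles over the 531 were -0.162 and 0.156. The sign of r depended on the processing and on the genes taken. It was 0.199 without array centring and 0.0146 with the mean over probes. It was 0.168 when the 3 probes of a further linker histone gene, LOC541973 (hon101), were added. With runs of 400 spots centred r stayed below 0, at -0.318.

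Probe by probe, the 126 pairs of a linker and an H2B probe had a mean r of 0.0199, against 0.0191 for pairs of different genes at large, and 10 of them (7.94%) had an r of at least 0.5, next to 4.9% of pairs of different genes. With runs of 400 spots centred the number was 5 (3.97%), next to 4.79%. One of the 10 pairs joined probes at least 5000 spots apart, his1 probe 12226 and his2b5 probe 5692, with an r of 0.840 and a rho of 0.703. Both had their highest values on S20 and S22, at 4.77 and 4.47 for probe 12226 and 2.20 and 1.71 for probe 5692. Without S20 and S22 their r was 0.597, and with runs of 400 spots centred it was 0.875. Neither probe followed its own gene, since r with the median of the gene's other probes was -0.336 for probe 12226 and -0.359 for probe 5692. This pair was chosen after its values were seen.

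The nfa101 profile had an r of 0.136 ± 0.20 with the H2B profile (rho 0.178) and of 0.161 with the linker profile (rho 0.265). Of the 531 other genes, 152 had a higher r with H2B. With the linker profile, r was 0.734 over the arrays S1 to S15 but -0.120 over the later 12. The r with H2B was -0.0536 with runs of 400 spots centred, so its direction depended on the centring.

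**Figure D5:**
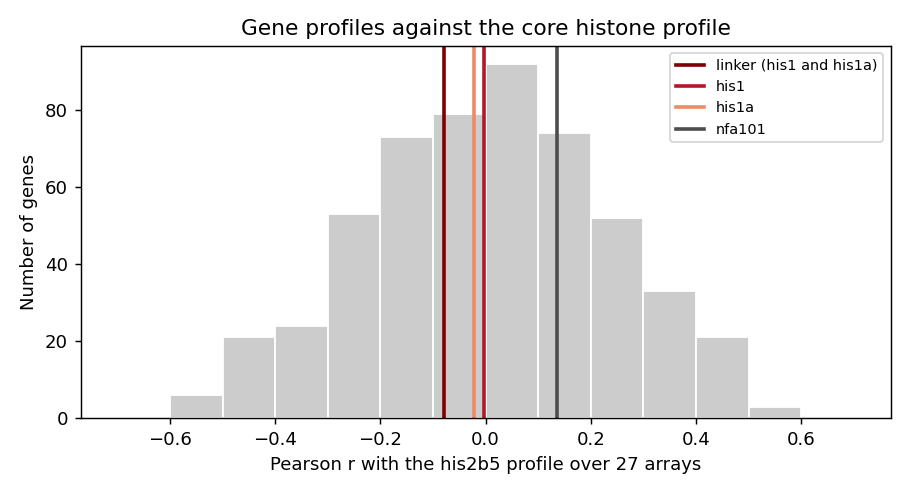
Number of genes (vertical axis) by Pearson r of the gene's profile with the his2b5 profile over 27 arrays (horizontal axis), for the 531 other genes. Lines mark the linker profile (-0.0785), his1 (-0.0038), his1a (-0.0219) and nfa101 (0.136), all within the bulk of the genes.

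The genes most like each profile were taken among genes with at least 3 probes. These were 146 genes for his2b5 and for the linker profile, and 147 for nfa101. Each r below is therefore among the highest of many, and was not tested. For his2b5 they were LOC541667 (rpl17), a ribosomal protein, with an r of 0.468, hsp70-5, an HSP70 chaperone, with 0.467, and LOC542421 (CNX) with 0.441. For the linker profile they were LOC541806 (cesa8), a cellulose synthase subunit, with 0.564, LOC606409 (PDIL1-1), a protein disulfide isomerase, with 0.497, and mbd115, named for a methyl-CpG-binding domain, with 0.470. For nfa101 they were LOC542444 (rpl39), a ribosomal protein, with 0.669, LOC542355 (hdt103, also Zm-HD2c), a plant-type histone deacetylase, with 0.651, and LOC542040 (zmm31), a MADS-box gene, with 0.616. Without the 2 arrays farthest from the median of the profile, r was 0.515, 0.485 and 0.365 for the genes given with his2b5. It was 0.617, 0.162 and 0.454 for those given with the linker histones. It was 0.355, 0.596 and 0.251 for those given with nfa101, whose 2 farthest arrays were S19 and S21. Among the probes of each of these named genes, mean r ran from -0.0940 for hdt103 to 0.364 for mbd115. It was -0.0397 for PDIL1-1 and 0.0817 for rpl17, so some of these profiles join probes that hardly agree.

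The list of other genes of chromatin, DNA replication and the cell cycle held 38 genes with 111 probes, and MNB1b was not in it. Of these probes 74 (66.7%) had a spread of at least 1, next to 65% of one-gene probes, and the median of the gene spreads was 1.46, against 1.44 over all genes. The widest was LOC542662 (sdg110), a SET-domain gene, at 3.92, followed by LOC541709 (rad51a), a recombinase of DNA repair, at 3.25. LOC542357 (pcna2) and LOC542425 (pcna1), the sliding clamps of DNA replication, had median spreads of 2.31 and 1.80. LOC541973 (hon101) had 0.87, below both member linker genes. The genes named nfa like nfa101, LOC541933 (nfa103) and LOC542654 (nfa104), had 0.82 and 0.84, next to the 0.77 of nfa101. Those named nfc, nfc102 and nfc103, had 1.80 and 1.69, and the 4 named nfd ran from 0.40 (nfd102) to 1.5 (nfd106). In all, 2 of the 38 genes were narrower than nfa101. The values of sdg110, rad51a, nfa103, nfa104, nfc102, nfc103 and nfd102 rest on 1 probe each.

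Replication genes lay on both sides of 0 in their correlation with H2B. Over the 38 genes, r with the H2B profile ran from -0.548 for LOC541934 (nfc102) to 0.436 for LOC542636 (hdt102, also HD2b), with a median of 0.0530 next to 0.0113 over all other genes, and 22 were above 0. It was 0.0850 for pcna2, -0.0525 for pcna1, 0.409 for LOC542504 (MCM7) and -0.197 for LOC542206 (MCM6), both subunits of the replicative helicase. It was 0.431 for LOC542307 (cyc1), a cyclin, and 0.283 for LOC542270 (cdc2), a cyclin-dependent kinase. MCM7 and cyc1 rest on 1 probe each. Mean r among the gene's own probes was 0.0734 for pcna2, 0.127 for pcna1, -0.119 for MCM6 and -0.107 for cdc2. With the linker profile the median was 0.185 next to 0.0220 over all other genes, and the highest was 0.567 for mbd111. The value of mbd111 rests on 1 probe. With nfa101 the median was 0.110 next to 0.0074, and r was 0.555 for nfa104, -0.0628 for nfa103 and 0.494 for hon101. Spearman's rho with nfa101 was 0.228 for nfa104, 0.117 for nfa103 and 0.268 for hon101. Both nfa104 and hon101 were highest on S19, an array far from the median of the nfa101 profile.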

How the data were processed

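The table as deposited gives 1 value per spot and array, read as a natural log ratio, for 19200 spots, 897 of them empty. The natural base was inferred from the values: 106 pairs of frequent values differed by 2 times ln of a whole number, against 5.50 pairs at shifted distances, while base 2 gave 3 against 2.83 and base 10 gave 20 against 16.8. Distances of 1 times ln were found in 33 pairs against 15.5, a smaller excess than for 2 times ln. Some of these distances are the same in both readings, since ln of a square is 2 times ln of its root. The values could be ln or 2 times ln, and the counts lean to 2 times ln. They were nevertheless read as ln and converted to log2, so the log2 values given here may be 2 times too large. The sources used here do not give the scanner, background correction or normalization. Precision is limited by the number of arrays.

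Members were matched by gene identifier, and names came from RefSeq's annotation of Zm-B73-REFERENCE-NAM-5.0, where all 4 were found. Members and gene lists were chosen with earlier results of these data known. Genes named were all members, the 3 genes with at least 3 probes most like each of 3 profiles, and a list of chromatin, replication and cell cycle genes picked by symbol. An ethylene receptor, a cyclotide and a ribosomal P protein were left out of that list. The prefix mnb was among those picked for it, but MNB1b was left out as well. The counts and shares of the list therefore do not cover MNB1b, the gene with 24310 of the 27916 same-gene probe pairs. From it, genes were printed by role or as extremes after their values were seen. Python 3.11.15, pandas 2.3.3 and numpy 2.4.6 were used, tested on simulated data. No test between groups was made. Alternatives changed centring, scaling, arrays and measures.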

Additional observations from a re-analysis of the deposited data

How the results depend on the processing

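Values that moved by more than 1 jackknife standard error, or counts by more than 1.5 times, are given here. For spreads and profiles the first limit is rough, because such errors are not reliable for percentiles and medians. Of the alternatives other than leaving out single arrays, 59 planned values stayed within these limits and 29 did not, and of those added after seeing the data 21 did and 7 did not. For median spread (his1 1.28, his1a 1.47, his2b5 1.07, nfa101 0.77), scaling the arrays gave 1.06 for his1. Centring runs of 400 spots gave 0.97 for his1 and 0.83 for his2b5, and subtracting neighbouring spots, added after seeing the data, gave 0.85 and 0.80. S1 to S15 alone gave 1.08 for his1 and 0.76 for his2b5, and S16 to S27 alone gave 1.06 for nfa101. The interquartile range gave 0.50 for his1, 0.63 for his1a, 0.45 for his2b5 and 0.39 for nfa101. The SD, scaled to the same distance, gave 2.10 for his1a, 1.34 for his2b5 and 1.16 for nfa101. The count of 17 probes became 9 with runs centred, 8 in S1 to S15, 1 with the interquartile range, 2 with a threshold of 1.5, 10 without S19 and S27, and 8 with neighbours subtracted, the last 2 added after seeing the data.

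Mean probe r of his1 (-0.0362) was -0.123 with runs centred, -0.0979 in S1 to S15 and -0.0996 by Spearman. That of his1a (0.0894) was 0.446 in S1 to S15 and -0.507 in S16 to S27, and that of his2b5 (0.103) was 0.152 without centring. That of nfa101 (0.549) was 0.371 with arrays scaled, 0.291 with runs centred, 0.708 in S16 to S27 and 0.182 with neighbours subtracted. Linker against core r (-0.0785) was 0.199 without centring, -0.318 with runs centred, -0.423 with neighbours subtracted and 0.168 with hon101 added to the linker probes, the last 2 chosen after seeing the data. The r of nfa101 with core (0.136) was 0.347 without centring. It turned below 0, within its error, with runs centred (-0.0536), the mean over probes (-0.0503) and neighbours subtracted (-0.0564).

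Leaving out 1 array at a time gave mean probe r of -0.0593 to -0.0139 for his1, -0.146 (without S3) to 0.269 (without S27) for his1a, 0.0690 to 0.118 for his2b5 and 0.473 to 0.622 for nfa101. Linker against core ran from -0.183 (without S15) to 0.0314 (without S23), and nfa101 against core from 0.0425 (without S21) to 0.270 (without S19). The count ran from 14 to 18. Median spreads ran from 1.19 to 1.30 for his1, 1.30 to 1.53 for his1a, 0.98 to 1.09 for his2b5 and 0.69 to 0.79 for nfa101. The cause of these movements was not tested. No paired analysis was possible because the labels put none of the arrays in a group. The signal over background of the spots is unknown, so the noise of a dim probe cannot be told apart from a real difference.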
